A study of Mus musculus with 18 samples.

Results

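Dendritic cells without CD14 were set against wild type dendritic cells given LPS together with the calcium chelator EGTA, at the same 5 times of LPS exposure. The arrays were taken by their labels: 5 of Cd14-deficient cells and 5 of EGTA-treated wild type cells, at 2, 4, 6, 12 and 24 h, which makes 10 of the 18 arrays of the series. Cells of the first condition carried the Cd14-/- genotype on the C57BL/6 background, and those of the EGTA condition were C57BL/6 wild type in 2 mM EGTA. The 5 C57BL/6 wild type LPS arrays at the same times shared the fit and show on which side of the response without EGTA each condition lay. A set of 3 unstimulated arrays, 1 per condition, gives levels before LPS and entered no test.

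All cells were grown for 7 to 10 days from the bone marrow of mice aged 6 to 8 weeks, in supernatant of B16 melanoma cells that secrete GM-CSF. Cultures were used when more than 90% of the cells carried the dendritic cell marker CD11c, so other marrow cells could be present. The LPS concentration is labelled as 1 µg/ml in wild type cells, with or without EGTA, and is not labelled for Cd14-deficient cells. Whether arrays of the same condition stem from different cultures or mice is not labelled either. The p-values below therefore rest on the spread over the 5 times, pooled over the 15 LPS arrays of the fit. That spread may be technical, and it also holds any change of the condition difference with time.

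CD14 is a surface protein that binds LPS, hands it to the receptor complex of TLR4 and MD-2, and promotes the uptake of TLR4 into endosomes. From the cell surface TLR4 signals through the adaptor MyD88 to NF-kB, and from endosomes through the adaptor TRIF to the transcription factor IRF3 and the gene of interferon beta. In dendritic cells CD14 also drives an influx of calcium that activates the phosphatase calcineurin and, through it, the transcription factor NFAT. EGTA binds calcium outside the cell, and it binds zinc as well. Both conditions are meant to remove the calcium signal, while CD14 itself is left in the EGTA-treated cells. What separates the pair is the question here.

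Levels are quantile-normalised log2(intensity + 16), and differences are Cd14-deficient minus EGTA on that scale, averaged over the 5 times, with the standard error of the limma fit. The added 16 understates differences of dim genes. A gene is called when its adjusted p is under 0.05 (limma with Benjamini-Hochberg adjustment over all 7392 genes tested). Of these, 2188 were called, or 29.6%: 1171 were higher in Cd14-deficient cells (15.8%) and 1017 lower (13.8%). Each list count below is to be read against these 2 shares. The split depended on the scaling: it was 771 higher and 1288 lower with median centring and 274 higher and 1946 lower with no scaling, where the median gene shifted by -0.16. Without the time term 199 genes were called, and without the 6 h arrays 1391. Most calls were small, and 179 reached 2-fold, 63 of them higher and 116 lower. With 2, 4 and 6 h only, 1713 genes were called, 1426 of them among the 2188. Those times leave out the 12 and 24 h EGTA arrays, whose RNA integrity numbers were 8.8 and 8.7, against 9.3 to 10 on the other LPS arrays.

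The wild type arrays show on which side each gap lay. Against them 28.3% of genes were called in Cd14-deficient cells and 12.9% in EGTA-treated cells. Of the 179 genes with at least 2-fold differences, 90 were called against wild type in Cd14-deficient cells and not in EGTA-treated cells, and 35 the other way round. Another 40 were called in both with opposite signs and 4 with the same sign. The Cd14-deficient mean was the one farther from wild type for 118 of the 179. Many of these gaps were there without LPS. Of the 179, 61 differed at least 2-fold in the same direction between the unstimulated Cd14-deficient and wild type arrays. For 56 of those 61 the Cd14-deficient mean was the farther one with LPS, so the 118 do not count effects on the LPS response alone. Both conditions are set against the same 5 wild type arrays, so these counts are not independent.

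Cd14 itself checked the labels. It stood at 4.36, 4.48, 4.28, 5.84 and 5.39 in Cd14-deficient cells at 2, 4, 6, 12 and 24 h, against 13.02, 12.79, 12.71, 12.49 and 12.97 in EGTA-treated cells. The levels did not overlap, and the difference was -7.93 ± 0.24 (n = 5 times, adjusted p = 2.64e-10, limma). Of 11 tested genes of the LPS receptor and its adaptors, Cd14 included, 5 were lower and 1 higher. That 1 was Tlr4, the signalling receptor (0.43), whose call was lost with no scaling (0.22). The kinase genes Tbk1 and Ikbke, which act downstream of TRIF, were lower (-0.26 and -0.61), but the Tbk1 call was lost without the arrays of 4, 6 or 12 h (-0.24, -0.24 and -0.23).

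Genes of the interferon response had the highest share of lower calls among the lists of 10 or more tested genes. Of 38 tested members of that list, 34 were lower and 0 higher, against 13.8% and 15.8% of all genes, and 36 were lower at each of the 5 times. The median member differed by -0.80, with 0.03 for all tested genes. The list's median lay at -0.85 in Cd14-deficient cells and -0.05 in EGTA-treated cells relative to wild type, and 35 members were called against wild type in Cd14-deficient cells and 1 in EGTA-treated cells. In bulk samples a lower level cannot be told apart from fewer cells that express the gene.

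Mx1, an interferon-induced antiviral GTPase, had 10.57, 12.08, 11.68, 10.94 and 10.30 in Cd14-deficient cells over the 5 times. It had 12.23, 12.91, 12.76, 12.20 and 11.13 in EGTA-treated cells. Each Cd14-deficient array was below the EGTA array of its time. The chemokines that bind CXCR3 differed more: Cxcl11 by -2.07 ± 0.15 (adjusted p = 1.06e-06, limma) and Cxcl9 by -1.96 ± 0.15 (adjusted p = 1.57e-06, limma). Cxcl11 levels were 7.57, 8.08, 7.50, 6.87 and 6.20 in Cd14-deficient cells, against 9.0, 9.90, 9.71, 9.36 and 8.59 in EGTA-treated cells. For both chemokines the EGTA arrays were all above the Cd14-deficient ones of the same time, and for Cxcl9 EGTA-treated cells lay above wild type (0.92) while Cd14-deficient cells lay below it (-1.03). Cxcl10 differed by -0.83, the exonuclease gene Isg20 by -1.60 and the GTPase gene Iigp1 by -1.66. Irf1, the transcription factor, was lower by 0.78 on the log2 scale.

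The gap was widest at 2 h, when the median member differed by -1.69, against -0.60, -0.47, -0.71 and -0.65 at 4, 6, 12 and 24 h. Ifit3, an RNA-sensing antiviral protein of the IFIT family, shows it: Cd14-deficient cells had 8.04, 11.80, 12.14, 11.96 and 11.63, and EGTA-treated cells had 11.01, 12.91, 12.94, 12.70 and 12.36. The 2 h value of Cd14-deficient cells stands far below the rest, and no later time repeats a gap of that size. With the 2 h arrays left out, 36 of the 38 members were called lower, with a median of -0.60. Ifnb1, the gene of interferon beta, peaked at 2 h with 8.16 in Cd14-deficient cells, against 9.92 in EGTA-treated and 10.35 in wild type cells. Its mean difference was -0.86 ± 0.26 (adjusted p = 0.0236, limma), and the call was lost in 8 of the leave-one-out fits, among them those without the arrays of 2, 4 or 12 h (-0.64, -0.79 and -0.92) and with a pseudocount of 64 (-0.63).

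Promoters of these genes were searched on both strands for the core of the interferon-stimulated response element, the site of the factor complex ISGF3, written as GAAANNGAA. Of the 34 called members, 23 matched a RefSeq promoter (250 bases before to 50 after the start). Of their 30 promoters, 15 held the letters (50.0%), against 8.6% of all 32851 promoters in the table. Over all 38 tested members it was 18 of 34 promoters (52.9%), so the letters did not set the called members apart within the list. The stretches upstream of the start of 3 members are printed below, to show how closely the letters can be packed (Ifit1 and Ifit3) and a promoter with 1 match (Cxcl10). Ifit1 and Ifit3, like Mx1, were chosen after their values were seen. Capitals mark the matches, on either strand, and overlapping matches run together.
Ifit1 (GRCm38.p6, chr19:34640770-34640823, plus strand): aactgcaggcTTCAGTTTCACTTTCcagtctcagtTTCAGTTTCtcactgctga
Ifit3 (GRCm38.p6, chr19:34583364-34583445, plus strand): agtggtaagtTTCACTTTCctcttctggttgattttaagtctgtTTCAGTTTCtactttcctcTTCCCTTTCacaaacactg
Cxcl10 (GRCm38.p6, chr5:92349084-92349112, minus strand): tcacgctttgGAAAGTGAAacttacctca
A match describes the letters in the window and no binding was measured.

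**Figure D1:**
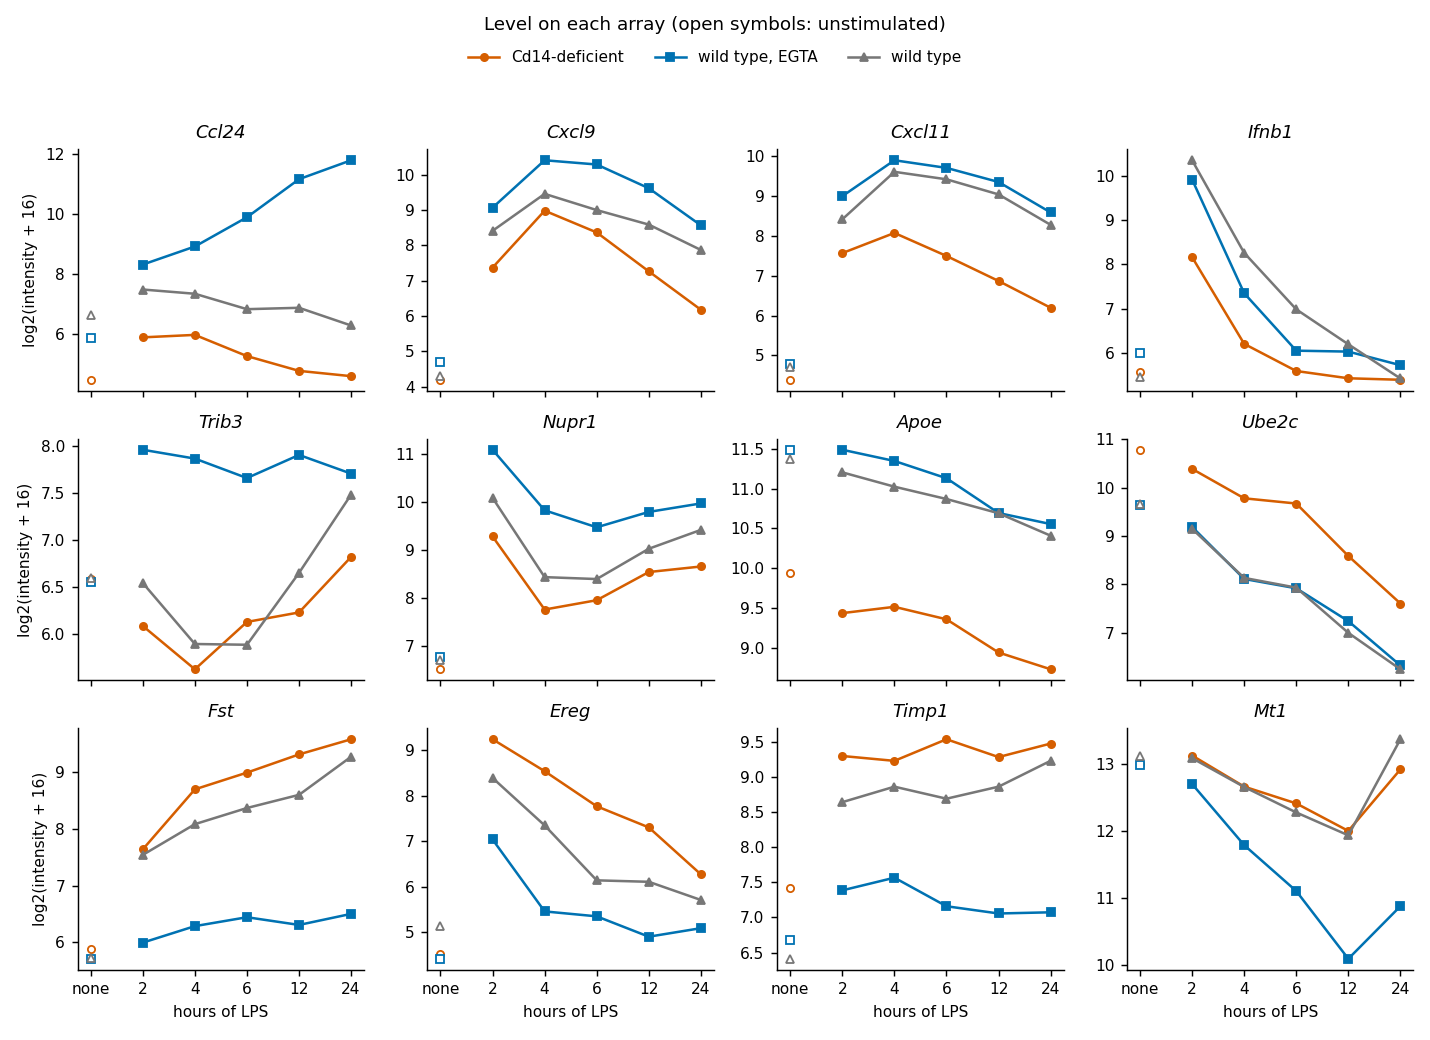
Levels of 12 genes, log2(intensity + 16), on each array against hours of LPS; circles are Cd14-deficient, squares EGTA-treated wild type and triangles wild type cells, 1 array per point, with unstimulated arrays as open symbols. The Ccl24 squares climb with time while its circles and triangles do not, Fst and Mt1 separate the EGTA squares from both other conditions, and Apoe and Ube2c separate the Cd14-deficient circles.

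Inflammatory genes driven by NF-kB did not share one direction. Of 33 tested, 6 were higher and 3 lower in Cd14-deficient cells, near the shares of all genes, and the median was -0.01. With no scaling the split was 4 higher and 13 lower. The neutrophil attractant Cxcl1 had 12.84, 12.34, 12.30, 10.90 and 9.49 in Cd14-deficient cells, against 12.04, 10.34, 9.91, 9.46 and 9.62 in EGTA-treated cells. Cd14-deficient cells were higher up to 12 h, and the groups met at 24 h (1.30 ± 0.29, adjusted p = 0.0054, limma). Csf3, the gene of the granulocyte growth factor G-CSF, differed by 1.26 and Ccl3, a monocyte attractant, by 0.44. In each of these 3 the EGTA mean was called below wild type (-1.41, -1.66 and -0.63) and the Cd14-deficient mean was not called against it (-0.11, -0.40 and -0.19). Tnf differed by 0.51 ± 0.15 (adjusted p = 0.0233, limma), a call lost in 10 leave-one-out fits (lowest value 0.39) and with no scaling (0.33). Cxcl1 and Csf3 were named after their values were seen.

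Several cytokines gave no call between the conditions. Il12b, a subunit of IL-12 and IL-23, differed by 0.03, with a 95% interval of -0.21 to 0.27. Il6 differed by -0.20 (-0.47 to 0.08), Il1b by 0.08 (0.00 to 0.15) and Ptgs2, the inducible cyclooxygenase, by 0.21 (-0.10 to 0.53). Nos2, the inducible nitric oxide synthase, lay far below wild type in both, by -2.53 in Cd14-deficient and -1.80 in EGTA-treated cells. Its difference of -0.73 had an interval of -1.49 to 0.04 (adjusted p = 0.142, limma). The monocyte attractant Ccl7 was also low in both, at -2.43 and -2.09 relative to wild type, and differed by -0.34 (-0.77 to 0.09). Il10, an anti-inflammatory cytokine, differed by -0.91 ± 0.24 (adjusted p = 0.0126, limma), a call lost without the 12 h arrays (-0.76).

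Maturation genes leaned lower in Cd14-deficient cells, with 9 of 22 lower and 2 higher, and a median of -0.20. They included Il15, which supports memory T cells and NK cells (-1.08), Cd274, which encodes the inhibitory ligand PD-L1 (-0.84), and Cd70 (-0.85), a costimulatory ligand. Cd40 was lower by 0.28 on the log2 scale. Cd86 gave -0.16 (adjusted p = 0.0978, limma) and the homing receptor Ccr7 gave -0.17 (adjusted p = 0.0608, limma). Of 13 genes that process peptides for MHC class I, 8 were lower and 0 higher. Among 11 class II genes 4 were higher, H2-Eb1 (0.29) and, named after its value was seen, H2-Ab1 (0.40) among them, and 2 lower. The class II calls turned on scaling: 0 were higher and 3 lower with no scaling.

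Both conditions are meant to block NFAT signalling. Of 26 genes of the NFAT and calcineurin list on the array, 17 were tested, and targets such as Il4, Ifng and Fasl were too dim. Of the 17, 2 were higher and 2 lower, near the shares of all genes (15.8% and 13.8%), so the count says little about NFAT. The calls were weak: without the 4 h arrays there were 0 either way, and with no scaling 0 higher and 7 lower. Il2, an NFAT target, had 8.52 at 2 h in Cd14-deficient cells, against 6.82 in EGTA-treated and 8.81 in wild type cells. At the later times it stayed between 4.15 and 5.05 in Cd14-deficient cells and between 4.10 and 4.70 in EGTA-treated cells, so that 1 time carries its mean difference of 0.40 (adjusted p = 0.352, limma). Of 6 genes tied in this system to NFAT or to LPS-induced death, 1 was higher and 2 lower. Gadd45g, a growth arrest gene, gave -0.57 (adjusted p = 0.0333, limma) and Ptges, the inducible prostaglandin E synthase, gave 0.79 (adjusted p = 0.0469, limma). Gadd45g lost its call in 12 leave-one-out fits (-0.61 to -0.44) and Ptges in 13 (0.59 to 0.83). Ddit3, which encodes the stress factor CHOP, gave -0.97 ± 0.14 (adjusted p = 0.000261, limma). Nr4a1 (-0.14) and Tia1 (0.04) gave no call, with intervals of -0.65 to 0.37 and -0.09 to 0.17.

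Among 15 genes of calcium entry, pumps and sensors 4 were higher and 2 lower, where 15.8% of all genes were higher and 13.8% lower. The count therefore says little about calcium handling. Atp2a3, a pump that returns calcium to the endoplasmic reticulum, was higher in Cd14-deficient cells by 0.62, the kinase gene Camkk2 by 0.51, the channel gene Trpv2 by 0.44 and Orai1, the pore of store-operated calcium entry, by 0.29 (named after its value was seen, as was Slc39a6 below). The ATP-gated channel gene P2rx4 was lower (-0.30). With no scaling the list had 2 higher and 4 lower.

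The secreted regulators of activin and EGF receptor signalling gave some of the widest gaps. Fst, whose product follistatin traps activin, had 7.64, 8.70, 8.99, 9.32 and 9.58 in Cd14-deficient cells, against 6.00, 6.29, 6.44, 6.31 and 6.50 in EGTA-treated cells. The ranges did not overlap and the difference was 2.54 ± 0.17 (5.81-fold, adjusted p = 4.64e-07, limma). EGTA-treated cells stayed within 1 of the unstimulated EGTA array (5.71) on the log2 scale. Their mean differed from wild type by -2.07, and that of Cd14-deficient cells by 0.47, which was not called. Inhba, which encodes the activin A subunit, was higher in Cd14-deficient cells by 0.83.

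Ereg, the EGF receptor ligand epiregulin, had 9.24, 8.54, 7.77, 7.30 and 6.27 in Cd14-deficient cells and 7.04, 5.46, 5.35, 4.90 and 5.09 in EGTA-treated cells. It was higher at each time, by 2.25 on average, and wild type lay between (1.08 for Cd14-deficient and -1.17 for EGTA-treated cells minus wild type). Timp1, an inhibitor of metalloproteinases, differed by 2.11, with Cd14-deficient levels of 9.23 to 9.53 and EGTA levels of 7.06 to 7.57. In the list of 19 growth factor genes with Fst, Inhba and Ereg, 4 were higher and 5 lower (against 15.8% and 13.8% of all genes). The TGF-beta receptor gene Tgfbr1 (-1.39) and the colony-stimulating factor gene Csf1 (-0.64) were among those lower. Tgfbr1 and Kcnn4 were named after their values were seen. Kcnn4, a calcium-activated potassium channel, was higher by 1.74, and its EGTA mean lay at -1.68 against wild type.

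Metallothioneins, small zinc-binding proteins whose genes are switched on by zinc through the factor MTF1, were lower under EGTA. Mt1 had 13.12, 12.66, 12.41, 12.00 and 12.92 in Cd14-deficient cells, against 12.70, 11.79, 11.10, 10.09 and 10.88 in EGTA-treated cells. The gap was narrowest at 2 h and the difference was 1.31 ± 0.23 (adjusted p = 0.00102, limma). Mt2 differed by 1.09 ± 0.20. Both were called below wild type with EGTA (-1.35 each) and not without CD14 (-0.04 for Mt1 and -0.26 for Mt2). Of 11 tested metal-responsive genes 5 were higher and 1 lower, against 15.8% and 13.8% of all genes. With no scaling 4 were higher and 4 lower. The zinc transporter genes Slc39a14 (1.07), Slc30a4 (0.60) and Slc39a6 (0.39) were among those higher, and Slc39a14 was above wild type in Cd14-deficient cells (1.32), unlike the metallothioneins. The other Slc39a14 probe set, above the array median on all 15 LPS arrays, differed by 0.38 and was higher at 3 of the 5 times.

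The core of the metal response element, the site bound by MTF1, was searched as TGCNCNC on both strands. It is short and common: 3 of the 4 promoters matched to called members held it (75.0%), against 51.0% of all promoters. Of the 8 promoters matched to all tested members 7 held it (87.5%), so it did not set the called ones apart. The upstream parts of the Mt1 and Mt2 promoters that hold it are printed because both genes were called below wild type with EGTA, with matches in capitals.
Mt1 (GRCm38.p6, chr8:94179056-94179082, plus strand): ggtcccgctgTGCACACtggcgctcca
Mt2 (GRCm38.p6, chr8:94172385-94172584, plus strand): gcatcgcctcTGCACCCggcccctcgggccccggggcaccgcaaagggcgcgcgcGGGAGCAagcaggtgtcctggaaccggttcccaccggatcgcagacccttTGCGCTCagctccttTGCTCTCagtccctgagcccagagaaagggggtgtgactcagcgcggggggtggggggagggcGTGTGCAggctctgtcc
Mt1 holds 1 such match upstream of its start and Mt2 holds 5.

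Genes of the amino acid response, which ATF4 switches on when amino acids run short or the endoplasmic reticulum is stressed, were lower in Cd14-deficient than in EGTA-treated cells. Of 29 tested, 15 were lower and 1 higher, with a median of -0.36. Relative to wild type the list's median was 0.02 in Cd14-deficient and 0.45 in EGTA-treated cells, and 19 members were called above wild type with EGTA, against 6 without CD14. Trib3, a pseudokinase that restrains ATF4, had 6.09, 5.63, 6.13, 6.23 and 6.82 in Cd14-deficient cells. In EGTA-treated cells it had 7.96, 7.87, 7.66, 7.91 and 7.71. The groups did not overlap (-1.64 ± 0.20, adjusted p = 8.43e-05, limma).

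Nupr1, a stress-induced chromatin protein, differed by -1.59, the mitochondrial folate enzyme gene Mthfd2 by -0.73 and the tryptophanyl-tRNA synthetase gene Wars by -0.94. Wars and Nupr1 were also called below wild type in Cd14-deficient cells (-0.67 and -0.63). Of 24 genes of the unfolded protein response 9 were lower and 0 higher, all by less than 1 on the log2 scale; Hspa5, the chaperone BiP, differed by -0.34 and Dnajb9, a co-chaperone, by -0.49. Here 17 members were called above wild type with EGTA, against 7 without CD14. The counts of lower calls in both lists were 10 to 14 (amino acid response) and 6 to 10 (unfolded protein response) when each time was left out in turn, and without the 6 h arrays the second was 6.

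Cholesterol synthesis genes had medians of opposite sign at early and late times. The median of 17 members was 0.21, 0.06, -0.15, -0.68 and -0.55 at 2, 4, 6, 12 and 24 h, and 6 of the 17 were called for an early minus late difference, against 0.812% of all genes. Those phase calls were 0 over all genes without the 4 h arrays. Idi1, an isomerase of the mevalonate pathway, had 12.14, 12.53, 12.05, 11.08 and 9.73 in Cd14-deficient cells, against 11.99, 12.56, 12.52, 11.99 and 11.10 in EGTA-treated cells. The conditions were close up to 4 h and apart at 12 and 24 h. Over all times 5 members were lower and 2 higher, but with 2, 4 and 6 h only 0 were lower and 3 higher, and without the 6, 12 or 24 h arrays 1 was lower. The mean differences of Fdft1 (-0.58) and Idi1 (-0.52) lost their calls without the 12 h arrays (-0.39 and -0.43) and without the 24 h arrays (-0.48 and -0.31). The EGTA RNA of those late times had the lower integrity numbers, and its part in the difference was not tested. Promoters of the list were also searched on both strands for the sterol response element, written as TCACCCCAC. It was in 0 of the 6 promoters matched to called members and in 1 of 16 matched to tested members, against 0.6% of all promoters.

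**Figure D2:**
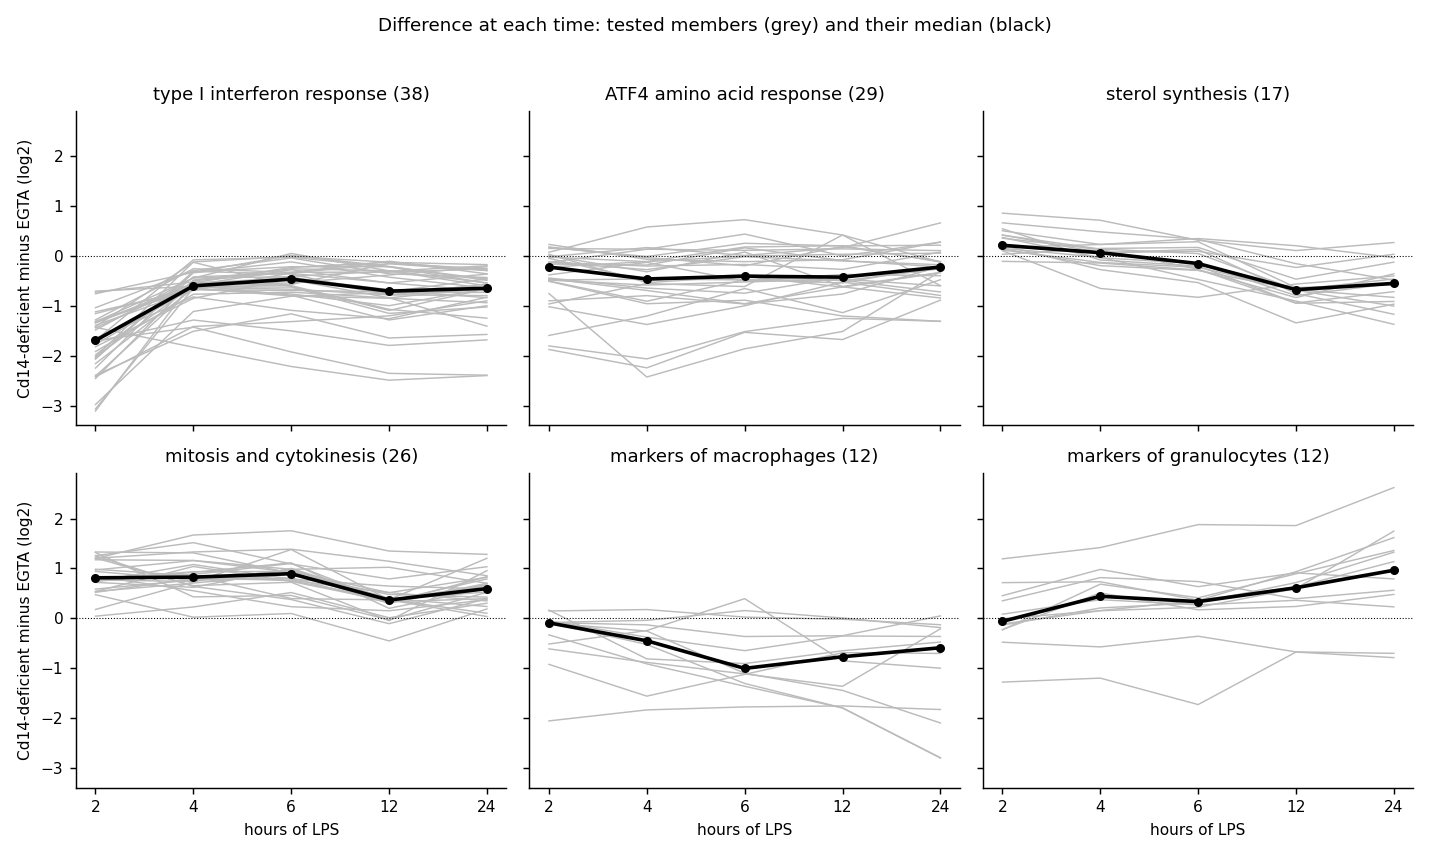
Cd14-deficient minus EGTA difference (log2) against hours of LPS for the tested members of 6 lists; grey lines are genes and the black line their median. The interferon median is lowest at 2 h (-1.69), the sterol median crosses 0 between 4 and 6 h, and the mitosis median stays above 0 at each time.

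Genes of mitosis and cytokinesis were higher in Cd14-deficient cells: 23 of 26 were called higher and 0 lower, with a median of 0.69. Ube2c, which helps the anaphase-promoting complex degrade cyclins, had 10.39, 9.78, 9.67, 8.59 and 7.60 in Cd14-deficient cells. EGTA-treated cells had 9.19, 8.11, 7.92, 7.24 and 6.32. Each Cd14-deficient array was above the EGTA array of its time by more than 2-fold, while both conditions had lower levels at each later time. Ccnb2, a mitotic cyclin, differed by 1.01, the kinesin gene Kif22 by 1.14 and the cyclin gene Ccna2 by 0.80. The difference was on the Cd14-deficient side: the list's median was 0.80 in Cd14-deficient and 0.06 in EGTA-treated cells relative to wild type. Without LPS, with 1 array each, Ube2c had 10.79 in Cd14-deficient cells, against 9.65 on the EGTA array and 9.67 on the wild type array. Kif22 had a smaller gap there than with LPS, 0.43 against the EGTA array and 0.38 against the wild type array. DNA replication genes did not follow, with 4 of 26 higher and 1 lower.

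Markers of the cells that such cultures hold moved with the comparison. Of 12 tested macrophage markers 9 were lower in Cd14-deficient cells and 0 higher (median -0.68), and the summed intensity of the list was 22167 to 33667 in Cd14-deficient cells, against 32447 to 38674 in EGTA-treated and 31242 to 37975 in wild type cells. Apoe, an apolipoprotein of macrophages, had 9.44, 9.52, 9.36, 8.94 and 8.73 in Cd14-deficient cells, against 11.49, 11.35, 11.13, 10.69 and 10.56 in EGTA-treated cells. The gap was nearly constant (-1.85 ± 0.06), and unstimulated cells had it too (9.94 in Cd14-deficient cells, against 11.48 and 11.37 on the EGTA and wild type arrays). The complement gene C1qc (-1.44) and Mertk (-1.0), a receptor for dying cells, were lower. C1qc did not have the steady gap of Apoe: it differed by -0.33 at 2 h and by -2.80 at 24 h. Without LPS its Cd14-deficient level differed by -0.08 from the EGTA array and by -0.05 from the wild type array. Cd68 (-0.03) and Mrc1 (0.04), named after their values were seen, gave no call. With 2, 4 and 6 h only, 5 of the markers were lower.

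Granulocyte markers went the other way for 7 of 12, with Camp, an antimicrobial peptide of neutrophil granules (1.79), and Elane, neutrophil elastase (0.76), higher, and with Mmp9 (-1.13) and Mmp8 (-0.56) lower. With 2, 4 and 6 h only, 4 were higher and 2 lower. The summed level of that list overlapped between the conditions: it was 22812 to 36805 in Cd14-deficient cells, 15424 to 40088 in EGTA-treated and 16024 to 35794 in wild type cells. Dendritic cell markers gave 1 higher and 1 lower of 11, with 12 of the 13 on the array above the array median in some LPS sample. All 9 T and NK cell markers on the array, Cd3e and Gzmb among them, stayed below the array median on each LPS array, as did 8 of 9 B cell markers. The part of these cells in the other differences was not tested.

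Lysosomal, death and uptake genes were lower more often than higher, where 13.8% of all genes were lower and 15.8% higher. Macrophages also express many of them, and the part of macrophages in these counts was not tested. Of 29 lysosomal genes 15 were lower and 1 higher, Glb1, a galactosidase, by 0.59 on the log2 scale and the cholesterol transporter gene Npc1 by 0.39, while Ctsk, a collagen-cutting cathepsin, was higher by 0.92. The lower count was 8 without the 4 h arrays and 9 with 2, 4 and 6 h only. Of 25 genes of cell death and survival 12 were lower and 1 higher. The death ligand gene Tnfsf10 (-1.19) and the inflammatory caspase genes Casp1 and Casp4 were among those lower. Uptake receptors and complement genes gave 9 lower and 4 higher of 24, with the Fc receptor gene Fcgr4 at -1.60, but 5 lower and 5 higher with 2, 4 and 6 h only.

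**Figure D3:**
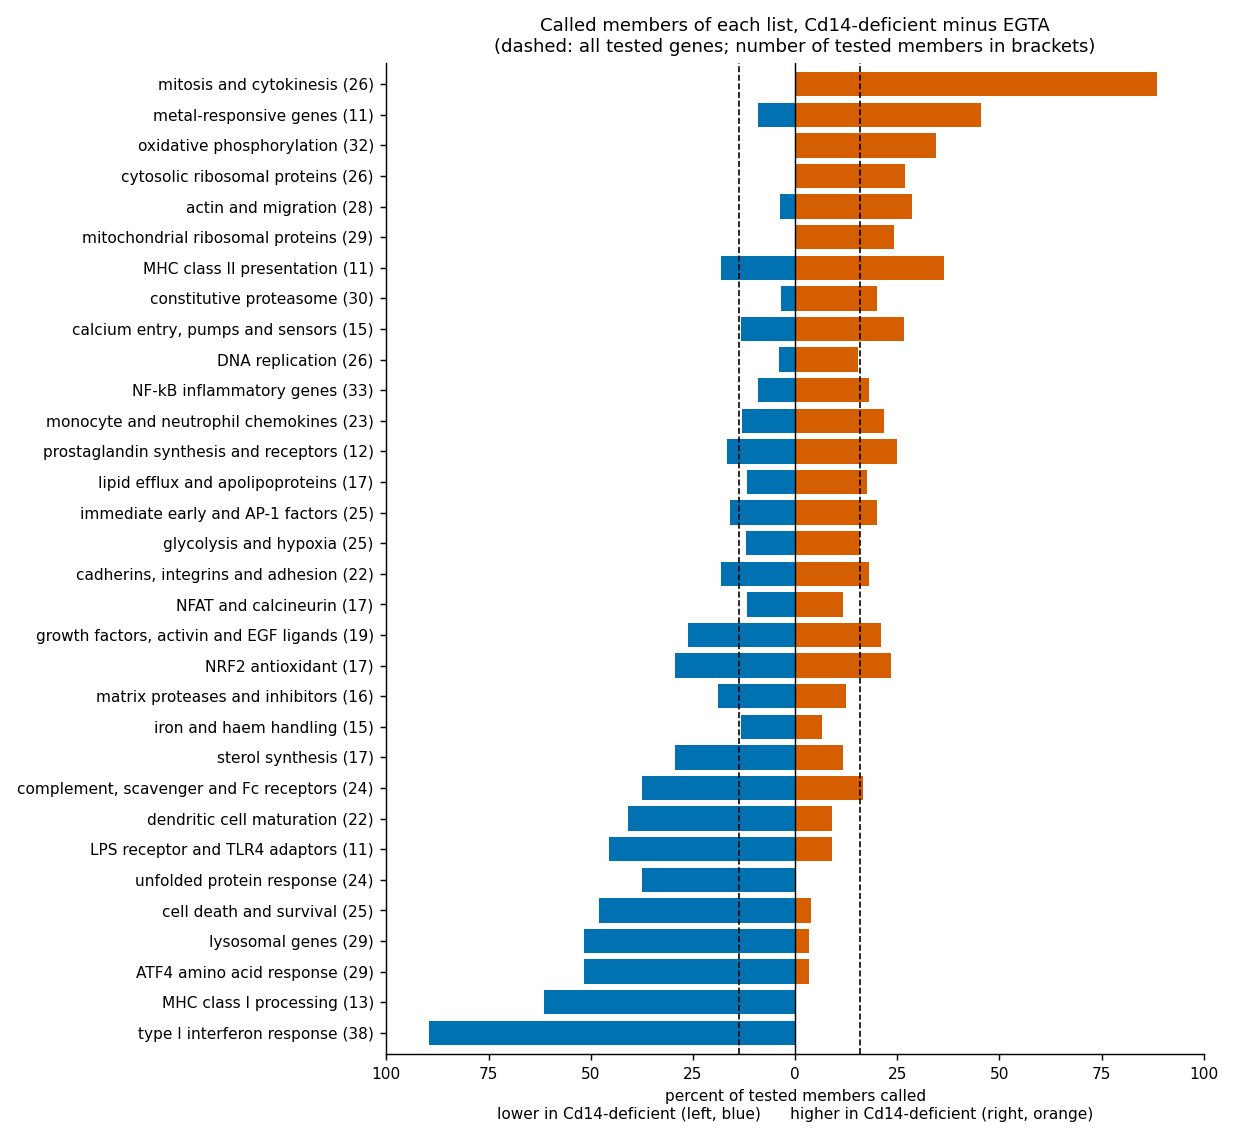
Percent of tested members of each list called higher (orange, right) or lower (blue, left) in Cd14-deficient than in EGTA-treated cells; dashed lines mark all tested genes, 15.8% higher and 13.8% lower. Mitosis genes (23 of 26 higher) and interferon response genes (34 of 38 lower) lie at the extremes.

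Housekeeping lists showed small shifts that scaling decided. Respiratory chain genes gave 11 of 32 higher and 0 lower with quantile normalisation, but 4 higher and 1 lower with median centring and 1 higher and 2 lower with no scaling. Cytosolic ribosomal protein genes gave 7 of 26 higher and 0 lower, and mitochondrial ones 7 of 29 higher and 0 lower, and both had 0 higher with no scaling. The remaining lists (proteasome, actin, adhesion, glycolysis, NRF2, iron, lipid efflux, immediate early genes, prostaglandins and matrix proteases) gave calls in both directions.

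After Cd14 the widest gaps were those of Rpgrip1 (-4.82), Ccl24 (-4.70) and BC018473 (4.18). Rpgrip1 and BC018473 differed on the Cd14-deficient side. For each, 1 probe set carries the gap. The other Rpgrip1 probe sets differed by -0.246, 0.034 and 0.083 and that of BC018473 by -0.015, all above the array median on 0 LPS arrays. Rpgrip1, a protein of photoreceptor cilia, had 5.38 to 5.99 in Cd14-deficient cells, against 10.18 to 10.63 in EGTA-treated and 10.13 to 10.60 in wild type cells. BC018473 had 7.92 to 10.23 in Cd14-deficient cells, against 4.27 to 5.44 in EGTA-treated and 4.11 to 5.08 in wild type cells. It was above the array median on the 5 Cd14-deficient LPS arrays and on 0 of the others, so it entered the test through the condition where it is high, and its gap is a description. Of the 179 genes with at least 2-fold differences, 13 entered through 1 condition alone, 5 of them through Cd14-deficient, 7 through EGTA and 1 through wild type arrays. Both gaps were as wide without LPS: Rpgrip1 had 5.75 on the unstimulated Cd14-deficient array, against 10.58 on the EGTA and 10.42 on the wild type array, and BC018473 had 9.41, against 4.49 and 4.24. Car4, a membrane-bound carbonic anhydrase (2.91), the cholecystokinin gene Cck (-2.55) and the peptide transporter gene Slc15a2 (-2.76) were also farther from wild type without CD14. BC023105 (2.88), Bex1 (1.96), Rnase2a (1.94), Ndrg2 (-2.26) and Erdr1 (-2.77) were too. Adi1 (1.91) is named with doubt, since its other probe sets differed by -1.32 and -0.44.

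Ccl24, an attractant of eosinophils, lay farther from wild type in EGTA-treated (3.04) than in Cd14-deficient cells (-1.66). It had 5.90, 5.98, 5.27, 4.78 and 4.61 in Cd14-deficient cells at 2, 4, 6, 12 and 24 h. In EGTA-treated cells it had 8.31, 8.91, 9.88, 11.15 and 11.78, and in wild type cells 7.48, 7.34, 6.83, 6.88 and 6.29. The conditions moved apart at each step, with wild type between them (-4.70 ± 0.58, adjusted p = 8.43e-05, limma). The Cd14-deficient levels were below the array median on all 5 LPS arrays, and the size of the gap depends on the added constant: it was -5.48 with 1 and -3.62 with 64. Gpr31b, a G protein-coupled receptor gene, differed by -2.46, with Cd14-deficient cells near wild type (0.07) and EGTA-treated cells above it (2.53). Tm4sf1, a tetraspan membrane protein gene, had 4.34, 7.22, 8.01, 10.47 and 11.03 in Cd14-deficient cells, against 4.34, 4.31, 5.15, 6.44 and 7.13 in EGTA-treated cells. Both values at 2 h lie near the floor of the scale and say nothing of a difference there, and from 4 h on the Cd14-deficient arrays were higher.

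Opposite changes against wild type were called for 79 genes. All 79 were also called between the conditions, which their opposite signs set in advance, since both changes add up in that difference. Of these, 38 were higher without CD14 and lower with EGTA, and 41 the reverse. The first kind included Ereg, the sodium pump subunit gene Atp1b1 (1.19 in Cd14-deficient and -1.17 in EGTA-treated cells against wild type), Mucl1, the neuropeptide gene Npy (0.73 and -1.04), the caveolin gene Cav2 and Tmeff1, which passed the intensity filter through Cd14-deficient arrays alone. The second kind included Ccl24, Cxcl9, the guanylate-binding protein gene Gbp8 (-1.68 and 1.07), the junction adhesion gene Mpzl2 (-2.20 and 1.39), Crxos and the endothelial and leukocyte adhesion gene Pecam1 (-0.77 and 0.78). For Ccl24 the call of Cd14-deficient cells against wild type was close to the threshold (-1.66, adjusted p = 0.0486, limma). Mpzl2 had 7.70, 6.50, 6.10, 7.39 and 8.35 in Cd14-deficient cells, against 10.01, 10.29, 10.94, 11.29 and 11.45 in EGTA-treated cells. Its ranges did not overlap.

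Shared changes against wild type were called for 362 genes, 197 higher in both conditions and 165 lower in both, and 63 of these were called between the conditions. Only 11 of the 362 reached 2-fold in both, and for 3 of them the 95% interval of Cd14-deficient minus EGTA stayed within 0.5 of 0 on the log2 scale. Penk, the enkephalin precursor, differed from wild type by -1.26 in Cd14-deficient and -1.14 in EGTA-treated cells, with levels of 6.98 to 8.12 in Cd14-deficient and 7.08 to 8.05 in EGTA-treated cells. Herpud1, which helps clear proteins from the endoplasmic reticulum, was higher than wild type by 1.08 in Cd14-deficient and 1.24 in EGTA-treated cells. Ccl2, a monocyte attractant, differed from wild type by -1.15 in Cd14-deficient and -1.13 in EGTA-treated cells, but its difference between the conditions ran over the day, at -0.85 at 2 h and 0.59 at 24 h.

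**Figure D4:**
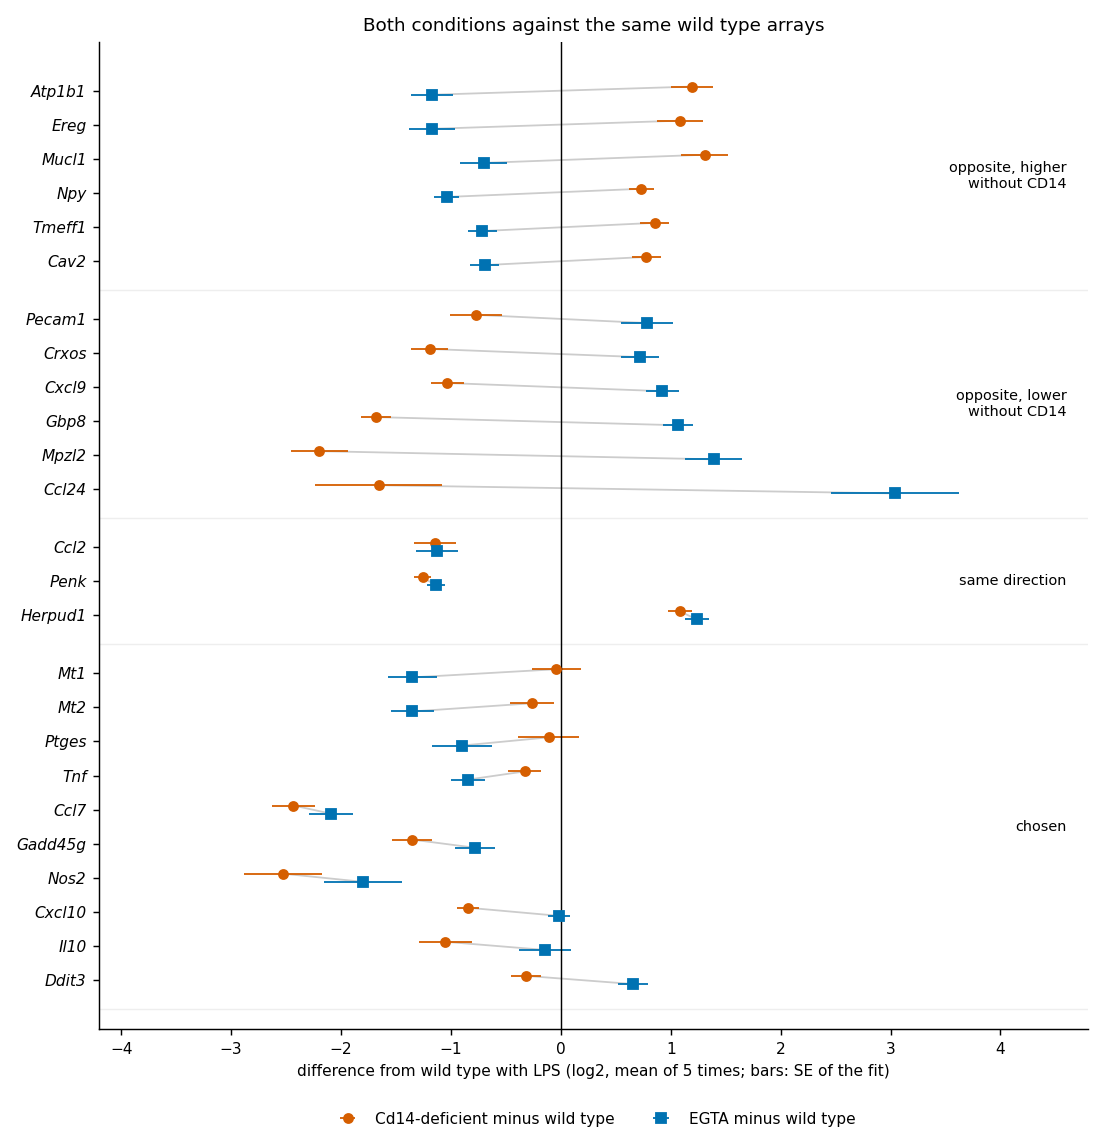
Mean difference from wild type over 5 LPS times (log2, bars are standard errors of the fit) for Cd14-deficient cells (circles) and EGTA-treated cells (squares), both against the same wild type arrays. The upper 12 genes lie on opposite sides of 0, Ccl2, Penk and Herpud1 lie together, and the lower genes were chosen for the pathway.

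The gap between the conditions depended on the phase of the response for 60 genes (0.812%), 29 with a higher difference at 2 to 6 h than at 12 and 24 h and 31 the other way. These calls were fragile: there were 0 with the 10 arrays of the conditions alone, 0 without the 4 h arrays, 27 without the 2 h arrays and 1 without the 24 h arrays. The gene Il33, an alarm cytokine, had 6.34, 7.34, 8.00, 8.00 and 7.92 in Cd14-deficient cells, against 8.29, 8.79, 8.77, 7.63 and 6.73 in EGTA-treated cells. It was lower without CD14 at the early times and higher at the late ones. S100a4, a calcium-binding protein, stayed at 12.65 to 12.92 in Cd14-deficient cells, while EGTA-treated cells had 12.28, 11.84, 11.49, 10.42 and 9.34. Wild type cells ended at 9.49, close to the EGTA-treated ones.

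Part of the comparison was present before LPS. Of the 179 genes with at least 2-fold differences, 65 differed at least 2-fold in the same direction between the unstimulated Cd14-deficient array and the array titled unstimulated with EGTA, 28 higher and 37 lower. Against the unstimulated wild type array the number was 61. The protocol of the EGTA-titled array mentions plating alone, and 14.6% of its probe sets lay under an intensity of 16, against 20.4% to 24.5% on the other arrays. With 1 array each, these are values with no test. The share of all tested genes that differed as much between these arrays is not given here, so 65 and 61 have no background beside them. Genes such as Fst, Ereg, Mt1, Trib3, Cxcl9 and Cxcl11 differed by less than 2-fold without LPS, with Cd14-deficient minus EGTA values of 0.17, 0.10, 0.01, 0.03, -0.49 and -0.41.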

How the data were processed

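Biotin-labelled cRNA was hybridised to 18 Affymetrix arrays of 22690 probe sets. The deposited values are linear intensity values, made by the authors with MAS5 per the submitters' processing notes; the sources used here give neither its version nor its scaling. Arrays did not share a scale (trimmed means of 330.5 to 472.3), so values were quantile-normalised and taken as log2(value + 16). Probe sets were named by the array's annotation: 20393 had 1 gene, 691 several and 1606 none, and 20364 of the first kind matched RefSeq by gene identifier. Where a gene had several such probe sets, that of greatest average intensity over all arrays stood for it (12394 genes). Genes that exceeded the median of the array on 2 or more of the 15 LPS arrays were tested (7392 genes). The fit (R 4.3.3, limma 3.58.1, lmFit, eBayes with an intensity trend) had condition and LPS time, which pairs the arrays, and left 8 residual degrees of freedom, or 6 with early (up to 6 h) and late terms. It was tested on simulated data. No arrays held identical values, correlations between conditions at a time were 0.978 to 0.986, and precision is limited by the number of arrays. Members, lists and the rule for named genes were chosen with earlier results of these data known. The rule took Cd14, the 12 largest called rises and falls of constant sign, the 4 called genes of smallest p per list, a chosen set, and the leading phase-dependent, opposite and shared genes. Alternatives were other scaling, pseudocounts, filters, probe set choice, arrays in the fit, no time block and leaving out arrays or times; gene list counts without each time were added after seeing the data.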

Additional observations from a re-analysis of the deposited data

Results flagged for a closer look

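Values of 1 array or time stood apart from the other 4 of their group in 6 of 66 groups examined, where chance gives about 1 in 20. The ratio of 3' to 5' Gapdh signal was 0.734 on 1 EGTA array, that of 24 h. The Cd14-deficient minus EGTA difference at 2 h stood apart for Il2 (1.704), Gpr31b (-1.367), Ptges (0.038) and Tm4sf1 (0.002), and that of Ccr7 at 24 h (0.086).

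Dependence on phase was read from the limma interaction of early (2 to 6 h) minus late (12 and 24 h) times. The 12 genes below were named for the largest called values each way. Other named genes were also called, among them Alox5ap (-0.73) and Ccl2 (-1.12). The difference between the conditions was higher early for Ccl24 (3.447), Bex6 (3.231), Naalad2 (2.53), Cd244a (2.294), Il23a (1.944) and Top3a (1.864). Bex6 was above the array median on 3 LPS arrays, all Cd14-deficient, and Naalad2 on 2, both EGTA, so each entered the test through the condition where it is high, and their values are descriptions. The 2 h values of Tm4sf1 lie near the floor of the scale. It was higher late for Il33 (-2.168), Apoc2 (-2.118), Plagl1 (-1.86), S100a4 (-1.822), Bbip1 (-1.385) and Cd14 (-1.352), the last near the floor of the scale in Cd14-deficient cells. These calls were lost with the 10 arrays alone, as given in the report.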

How the results depend on the processing

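The count of genes called between Cd14-deficient and EGTA-treated cells was 1391 to 2288 when 1 array or 1 time was left out, with 697 to 1225 higher, 694 to 1063 lower and 175 to 197 at least 2-fold; the lowest counts came without the 6 h arrays (1391 called, 697 higher), and 748 and 765 were higher without the 4 h and 12 h arrays. Without the time block (unpaired) 199 genes were called, 98 higher and 101 lower, and 85 were at least 2-fold; of 188 named genes, 122 lost their call there. With median centring 771 were higher, and with no scaling 274 were higher and 1946 lower. A pseudocount of 64 left 115 genes at least 2-fold. The early minus late count was 0 to 90 over the times left out, 38 with median centring, 12 with no filter and 0 with the 10 arrays alone, where fewer residual degrees of freedom remain; 1078 genes had an unadjusted p under 0.05 in the main setting by limma. Of the 188 named genes, 24 of those called lost the call when some array or time was left out. Mrps14, called in the main setting (0.24), was -0.004 with no scaling. Among genes without a call, these changed sign: Apoc2 (0.003 with a pseudocount of 64, -0.408 to 0.393 leaving out 1 array or time), Ccl2 (-0.203 to 0.186, likewise), Il12b (-0.118 with no scaling, -0.05 at 2, 4 and 6 h, -0.08 to 0.09 leaving out), Il1b (-0.034 with no scaling), Il23a (-0.114 with no scaling, -0.13 with a pseudocount of 1, -0.254 to 0.398 leaving out), Il6 (0.049 at 2, 4 and 6 h), Nr4a1 (-0.386 to 0.021 leaving out), Tia1 (-0.022 with median centring, -0.161 with no scaling, -0.019 with the mean of its probe sets) and Top3a (-0.324 to 0.28 leaving out). The cause was not tested.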
